A study of Homo sapiens with 12 samples.

Results

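The genes of homologous recombination and of the Fanconi anemia pathway were followed in 2 lung cancer cell lines exposed to ISP-I. The set held 37 genes of the 19973 in the expression table, taken by gene symbol. The rule uses no measured value, but the members were chosen with earlier results of these data known. Shares of the set beside those of all genes are therefore descriptive. RNA-seq had been done on NCI-H460 (H460) and A549 cells, which are established human lines of non-small cell lung cancer (NSCLC). Their genotype is labelled WT, while the paper states that both carry homozygous inactive mutations of KEAP1. In each line, 3 non-treated libraries (control) were set against 3 libraries of cells given isovalerylspiramycin I (ISP-I, a component of the macrolide antibiotic carrimycin) at 10 µM for 48 h, 12 libraries in 4 groups in all. The labels do not say that the libraries of a group came from separate cultures, so the p values measure the spread between these libraries, which may be technical. In bulk RNA, fewer cells that use a gene and less of its RNA per cell cannot be told apart.

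Homologous recombination repairs a double-strand break by copying the sister chromatid: the ends are cut back to single strands, BRCA2 with PALB2 and BRCA1 loads the recombinase, and the coated strand invades its sister. The Fanconi pathway deals with DNA interstrand crosslinks, in which a core complex with the ubiquitin ligase FANCL and its partner enzyme UBE2T marks the FANCD2-FANCI pair, and nucleases then unhook the crosslink. Both work mainly in S and G2 phase, and many of their genes are transcribed with the cell cycle.

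Gene positions are those of the table, on hg38. Levels are in FPKM (fragments scaled by gene length and by the reads of the library), and changes are log2 fold changes of FPKM + 1 between ISP-I and control libraries, tested with limma and adjusted by Benjamini-Hochberg over all genes tested. Genes with an adjusted p under 0.05 are said to pass at any fold, and those that also changed by more than 2-fold are said to be called. Adding 1 draws the fold change of genes near or under 1 FPKM toward 0. Groups do not overlap when every library of 1 group lies above every library of the other. The share of all genes without overlap was not counted. The table held 14225849 to 17874422 reads per library. The median change of all genes tested was -0.15 in H460 and 0.02 in A549. Scaling factors by median of ratios were 0.837 to 0.850 in the H460 ISP-I libraries and 1.01 to 1.09 in the other groups. Epithelial keratins and adhesion genes reached a summed 375 to 474 FPKM in H460 libraries and 1350 to 1930 FPKM in A549 libraries. Of these 7 genes, 5 averaged 1 FPKM or more in H460, with KRT8 highest at 192 FPKM, and all 7 did in A549. In H460 controls 6 were called lower than in A549 controls, and 1 passed higher at any fold. The summed markers of blood cells were at most 0.275 FPKM and those of endothelium at most 0.599 FPKM in any library, and those of fibroblasts were 5.04 to 11.1 FPKM in H460, with COL3A1 at 5.42 FPKM on average. Libraries of a group differed with the GC content of the genes. In A549 control library 3, genes under 40% GC had a median deviation of -0.37 from the other libraries of the group, against 0.14 for genes over 50% GC, and the same held in H460 ISP-I library 3 with -0.31 and 0.10. The repair genes have a median GC content of 41.8%, against 49.0% for all genes, and 27 of the 37 were lowest of their group in each of these libraries.

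In H460 cells, 15 of the 37 repair genes were called lower after ISP-I (40.5%), where the share among all genes tested was 15.2%. PALB2 was the single one called higher, against 10.5% of all genes. At any fold, 24 were lower and 2 were higher, PALB2 and RAD50, with a background of 41.5% lower and 27.6% higher, and 11 did not pass. In A549 cells 4 were called lower, UBE2T, FANCD2, RAD54L and FANCI (10.8%), against 3.51% of all genes, and none was called higher (1 with a pseudocount of 0.1 and 1 with voom on recovered reads), against 4.2%. At any fold, 17 were lower and 3 were higher in A549, PALB2, FANCF and FAN1, where the background was 27.0% lower and 30.5% higher. The median change of the 37 genes was -0.67 in H460 and -0.22 in A549, which is -0.52 and -0.24 from the median of all genes in the same fit. The A549 median was -0.47 without control library 3 and -0.12 without control library 1, and the 17 genes lower at any fold became 25 without control library 3. The H460 median ranged from -0.76 to -0.62 when single libraries were left out.

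All 17 genes that passed lower in A549 also passed lower in H460: BARD1, BLM, BRCA1, BRIP1, CHEK2, EXO1, FANCA, FANCC, FANCD2, FANCI, FANCL, POLQ, RAD51AP1, RAD54B, RAD54L, SLX4 and UBE2T. Of the 12708 genes tested in both lines, 2722 (21.4%) passed lower in both. Among all genes tested in A549, 3702 passed lower, so most genes lower in A549 were also lower in H460. No share of all genes was counted for the groups that follow. A further 7 passed lower in H460 and did not pass lower in A549: CHEK1, FANCE, FANCG, RAD51C, RAD51D, XRCC2 and XRCC3. Another 9 passed in neither line: ATM, ATR, BRCA2, FANCB, FANCM, NBN, RAD51B, RBBP8 and TOPBP1. The remaining 4 passed higher in at least 1 line: FAN1, FANCF, PALB2 and RAD50.

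**Figure D1:**
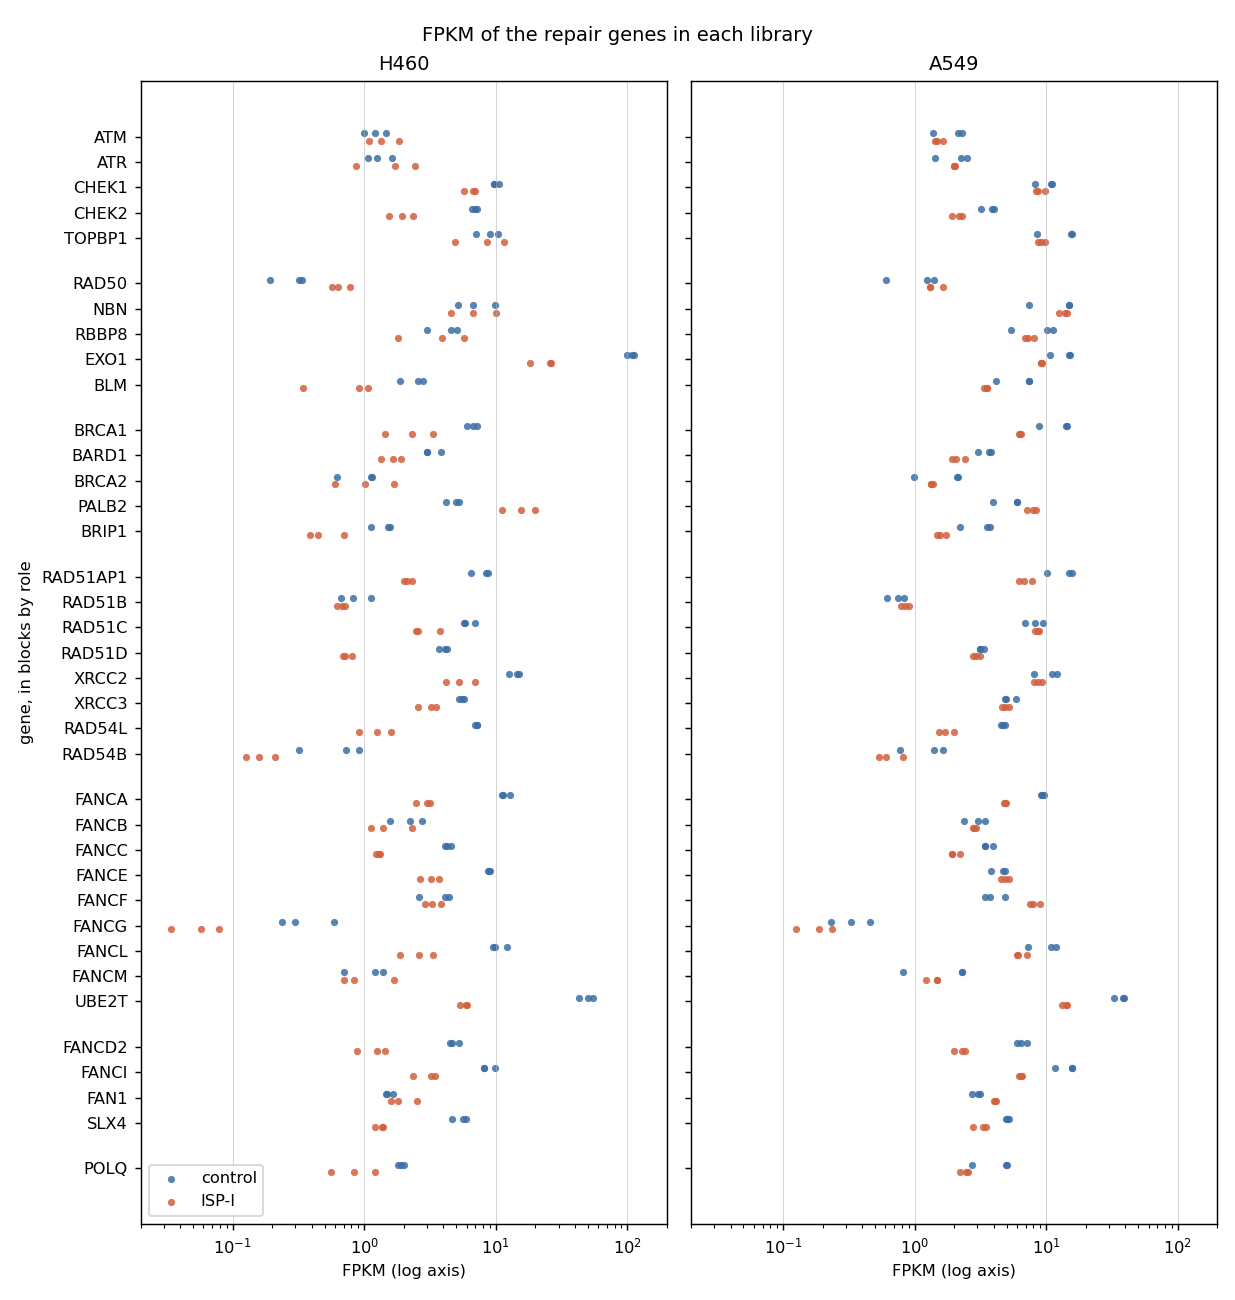
FPKM on a log axis of each of the 37 repair genes in the 3 control (blue) and 3 ISP-I (orange) libraries of H460 (left) and A549 (right), in blocks by role from damage kinases at the top to POLQ at the bottom. EXO1 and UBE2T have the highest H460 control levels, at 106 and 49.1 FPKM on average, and FANCG the lowest ISP-I level, at 0.0567 FPKM.

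Promoters are shown for the genes on which the results turn, as 300 bases from 250 before to 50 after the RefSeq start on GRCh38.p14. UBE2T and RAD54L were shown because they were among the largest changes in both lines, and EXO1, FANCD2 and PALB2 were added after their values were seen, as the gene with the largest difference between the lines, a gene called in both, and the gene called higher. Letters in capitals mark E2F-type (TTCGCGC or TTGGCGC or TTCCCGC), CHR-type (TTTGAA or TTCGAA) and NF-Y-type (CCAAT) matches on either strand. Letters of these kinds are known from promoters of cell cycle genes.
UBE2T, chr1:202341887-202342186, minus strand: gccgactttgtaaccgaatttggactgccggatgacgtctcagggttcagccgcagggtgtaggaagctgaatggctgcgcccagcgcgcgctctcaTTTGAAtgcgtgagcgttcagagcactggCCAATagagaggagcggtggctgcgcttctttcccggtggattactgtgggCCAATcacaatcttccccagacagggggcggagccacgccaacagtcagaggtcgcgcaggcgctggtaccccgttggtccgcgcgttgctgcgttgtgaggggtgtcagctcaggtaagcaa
RAD54L, chr1:46247513-46247812, plus strand: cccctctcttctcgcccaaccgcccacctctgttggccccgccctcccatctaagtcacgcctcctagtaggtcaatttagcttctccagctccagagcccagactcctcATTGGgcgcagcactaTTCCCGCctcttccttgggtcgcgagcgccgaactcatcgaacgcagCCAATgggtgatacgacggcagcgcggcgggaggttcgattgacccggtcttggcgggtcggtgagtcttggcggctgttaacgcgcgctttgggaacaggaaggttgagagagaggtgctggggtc
EXO1, chr1:241847954-241848253, plus strand: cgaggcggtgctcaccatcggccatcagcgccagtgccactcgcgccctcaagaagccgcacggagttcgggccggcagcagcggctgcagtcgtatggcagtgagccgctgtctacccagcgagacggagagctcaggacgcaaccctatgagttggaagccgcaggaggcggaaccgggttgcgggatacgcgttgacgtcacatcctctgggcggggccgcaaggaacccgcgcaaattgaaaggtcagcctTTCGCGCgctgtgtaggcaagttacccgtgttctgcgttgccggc
FANCD2, chr3:10026187-10026486, plus strand: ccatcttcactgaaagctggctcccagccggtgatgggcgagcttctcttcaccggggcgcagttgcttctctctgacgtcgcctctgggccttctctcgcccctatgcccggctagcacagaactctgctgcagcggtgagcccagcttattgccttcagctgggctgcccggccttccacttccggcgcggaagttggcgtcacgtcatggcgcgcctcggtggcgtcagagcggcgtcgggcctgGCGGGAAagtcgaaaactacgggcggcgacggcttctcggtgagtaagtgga
PALB2, chr16:23641261-23641560, minus strand: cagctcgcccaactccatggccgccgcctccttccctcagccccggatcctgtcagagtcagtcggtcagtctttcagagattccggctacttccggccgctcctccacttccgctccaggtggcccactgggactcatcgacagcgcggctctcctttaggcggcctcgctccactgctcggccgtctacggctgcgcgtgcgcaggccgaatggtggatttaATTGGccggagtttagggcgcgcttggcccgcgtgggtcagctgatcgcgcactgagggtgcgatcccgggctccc

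The UBE2T promoter held a CHR-type match with its first base at position -153 from the start and CCAAT boxes at -124 and -73, and no E2F-type letters. RAD54L held TTCCCGC at -124, with an NF-Y-type match on either side of it at -140 and -77. EXO1 held TTCGCGC just after the start, at position 6, and FANCD2 held the E2F-type letters on the opposite strand, across the start. In PALB2 the search found a single NF-Y-type match. Among the 32 members with a usable window, 19 held E2F-type letters (59.4%), against 18.3% of the 10213 promoters of genes tested in H460 and 15.5% of all 14334 promoters of the same length. Of the 14 members called lower in H460 that had a window, 11 held them (78.6%), and of the other 18 members 8 did (44.4%). The GC box (GGGCGG, not in capitals here) split the same way, at 13 of 14 (92.9%) and 11 of 18 (61.1%), while CHR-type letters were at 14.3% and 16.7% and NF-Y-type letters at 42.9% and 38.9%. CHR-type letters were in 15.6% of member promoters against 10.7% of those of genes tested in H460, and NF-Y-type letters in 40.6% against 37%. A GC box was in 75.0% against 73.3%. The letters of TTCCCGC can share bases with a GC box on the opposite strand. A match describes letters in a window and not a bound site.

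Of the 5 damage kinases and checkpoint genes, 2 passed lower in H460 and 1 in A549, where 41.5% and 27.0% of all genes did. ATM and ATR, the kinases that sense double-strand breaks and single-stranded DNA, overlapped between treatments in both lines. ATM was at 1.22 ± 0.238 FPKM in H460 controls and 1.42 ± 0.39 FPKM after ISP-I, and ATR at 1.32 ± 0.289 and 1.67 ± 0.791 FPKM (mean ± SD, n = 3, here and where ± is used). In A549 their changes were -0.21 (adjusted p = 0.186) and -0.01 (adjusted p = 0.947) in limma. TOPBP1, the activator of ATR, spread from 4.89 to 11.6 FPKM among H460 ISP-I libraries and changed by -0.13 (adjusted p = 0.679) in H460 and -0.44 (adjusted p = 0.088) in A549. CHEK2, the effector kinase of ATM, fell in H460 from 6.9 ± 0.333 to 1.95 ± 0.402 FPKM and in A549 from 3.7 ± 0.457 to 2.13 ± 0.175 FPKM, with no overlap in either line. Its log2 fold changes were -1.43 (SE 0.129, adjusted p = 2.05e-05) and -0.58 (SE 0.0971, adjusted p = 0.00117). CHEK1, the effector kinase of ATR, fell by less than 2-fold in H460, from 10.0 ± 0.496 to 6.47 ± 0.66 FPKM, with a change of -0.56 (adjusted p = 0.00233) there and -0.15 (adjusted p = 0.3) in A549.

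Among the genes of end resection, EXO1 and BLM passed lower in both lines, and RAD50, NBN and RBBP8 passed lower in neither. EXO1 (chr1:241847967-241895148), the exonuclease that extends the cut strand, was at 113, 98.8 and 108 FPKM in the H460 control libraries and at 26.3, 25.9 and 18.2 FPKM after ISP-I. In A549 it was at 15.2, 14.8 and 10.6 FPKM in control libraries and at 9.26, 9.18 and 9.2 FPKM after ISP-I. The groups did not overlap in either line, and A549 control library 3 was the low one. The change was -2.15 (SE 0.16, adjusted p = 6.98e-06) in H460, a 4.54-fold lower mean FPKM, and -0.49 (SE 0.126, adjusted p = 0.0105) in A549. BLM, the helicase that works with EXO1 and later dissolves crossed strands, fell in H460 from 2.43 ± 0.489 to 0.772 ± 0.379 FPKM and in A549 from 6.29 ± 1.87 to 3.5 ± 0.102 FPKM. Neither change reached 2-fold on the log2(FPKM + 1) scale, at -0.97 (adjusted p = 0.00132) and -0.66 (adjusted p = 0.0138). In mean FPKM, BLM was 3.14-fold lower in H460 and 1.8-fold lower in A549, where EXO1 was 1.47-fold lower.

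RAD50 (chr5:132556019-132646349), the scaffold of the nuclease complex that opens resection, was among the few members that passed higher in H460. Its libraries read 0.336, 0.193 and 0.318 FPKM in controls and 0.567, 0.784 and 0.631 FPKM after ISP-I, and the groups did not overlap. The fitted change was 0.37 (SE 0.0799, adjusted p = 0.00303), on 31 to 51 reads per control library and 99 to 138 reads per ISP-I library. With the GC trend of each library removed it was 0.16 (adjusted p = 0.0715). In A549 RAD50 was at 1.24, 1.41 and 0.609 FPKM in controls and 1.31, 1.32 and 1.65 FPKM after ISP-I, with control library 3 the low one and a change of 0.24 (SE 0.149, adjusted p = 0.208). The exons of another protein-coding gene on the same strand cover 76.9% of the exonic bases of RAD50, so its level is uncertain. NBN, its partner in the complex, changed by -0.05 (adjusted p = 0.878) and 0.17 (adjusted p = 0.548) in H460 and A549, and RBBP8 (CtIP), the cofactor that starts resection, by -0.18 (adjusted p = 0.609) and -0.18 (adjusted p = 0.511). Both overlapped between the treatments in each line, with NBN at 7.26 ± 2.41 and 7.06 ± 2.76 FPKM and RBBP8 at 4.23 ± 1.11 and 3.82 ± 1.97 FPKM in H460 controls and ISP-I libraries.

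PALB2 (chr16:23603160-23641310), the bridge between BRCA1 and BRCA2, was higher after ISP-I in both lines while BRCA1, BARD1 and BRIP1 were lower. In H460 PALB2 was at 5.29, 4.16 and 4.99 FPKM in controls and at 15.4, 19.9 and 11.2 FPKM after ISP-I. In A549 it was at 5.98, 5.96 and 3.97 FPKM in controls and at 7.19, 7.88 and 8.4 FPKM after ISP-I. Every ISP-I library was above every control library of its line, and the H460 ISP-I libraries spread the most. The change was 1.47 (SE 0.193, adjusted p = 0.000185) in H460, 3.21-fold in mean FPKM, and 0.50 (SE 0.139, adjusted p = 0.0147) in A549. The A549 change no longer passed without ISP-I library 2 (0.50, adjusted p = 0.0503) or ISP-I library 3 (0.45, adjusted p = 0.0608).

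BRCA1, the ubiquitin ligase that promotes resection and the loading of PALB2, fell in H460 from 6.63 ± 0.567 to 2.34 ± 0.946 FPKM and in A549 from 12.5 ± 3.17 to 6.3 ± 0.125 FPKM. It was called in H460, at -1.23 (SE 0.198, adjusted p = 0.000624), and passed in A549 at -0.85 (SE 0.163, adjusted p = 0.00242). BARD1, its obligate partner, fell in H460 from 3.29 ± 0.49 to 1.63 ± 0.291 FPKM and in A549 from 3.49 ± 0.416 to 2.13 ± 0.269 FPKM. BRIP1, the helicase bound by BRCA1, fell in H460 from 1.41 ± 0.253 to 0.513 ± 0.17 FPKM and in A549 from 3.17 ± 0.839 to 1.59 ± 0.126 FPKM. Its log2 fold change of FPKM + 1 was -0.67 in each line, with adjusted p of 0.000864 and 0.00487 in limma. The mean FPKM of BRIP1 was 2.75-fold lower in H460 and 2.0-fold lower in A549, so the equal values do not mean equal falls. None of these 3 overlapped between treatments in either line. BRCA2, the loader of the recombinase, overlapped in both, at 0.961 ± 0.298 and 1.1 ± 0.549 FPKM in H460 and 1.74 ± 0.655 and 1.36 ± 0.032 FPKM in A549. Its changes were 0.08 (adjusted p = 0.722) and -0.19 (adjusted p = 0.37).

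**Figure D2:**
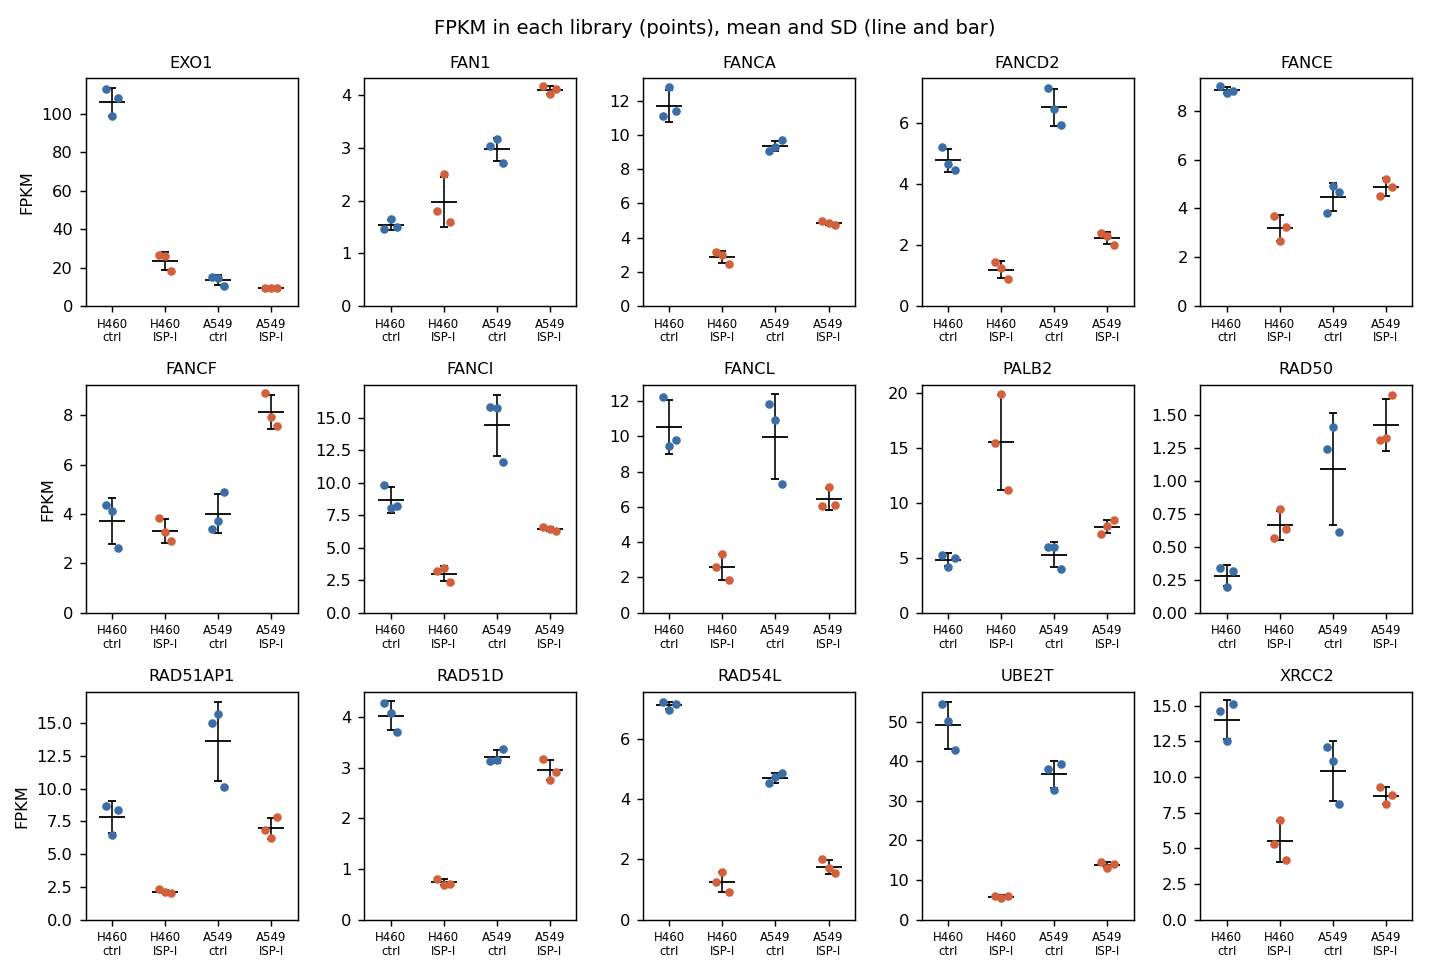
FPKM of 15 repair genes in each library (points), with the mean (line) and SD (bar) of the 3 libraries of each group, on axes from 0 that differ between panels (ctrl, control). PALB2 rises in both lines, FANCF rises in A549, and RAD51D falls in H460 from 4.02 to 0.736 FPKM and is at 3.21 and 2.95 FPKM in A549.

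Of the 8 genes of strand exchange, 4 were called lower in H460 (50%, against 15.2% of all genes) and RAD54L alone in A549 (12.5%, against 3.51%). RAD54L (chr1:46246461-46278480), the motor protein that helps the coated strand invade its sister, was at 7.21, 6.97 and 7.16 FPKM in H460 controls and at 1.26, 1.59 and 0.909 FPKM after ISP-I. A549 controls had 4.53, 4.72 and 4.87 FPKM and treated A549 libraries 2.0, 1.7 and 1.54 FPKM. The groups were far apart in both lines, with little spread among the controls. RAD54L changed by -1.86 (SE 0.132, adjusted p = 5.56e-06) in H460 and -1.06 (SE 0.0876, adjusted p = 2.85e-05) in A549. Exons of LRRC41 on the other strand cover 19.9% of its exonic bases. RAD54B, its relative, was under 1 FPKM in most libraries and passed lower at -0.49 (adjusted p = 0.00779) in H460 and -0.44 (adjusted p = 0.0292) in A549, and 66.0% of its exonic bases are shared with FSBP.

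RAD51AP1 (chr12:4538798-4560047), which stimulates strand pairing by the recombinase, fell in both lines. It was at 8.67, 6.46 and 8.35 FPKM in H460 controls and at 2.3, 2.11 and 2.0 FPKM after ISP-I. Its A549 levels were 15, 15.7 and 10.1 FPKM in controls and 6.84, 6.26 and 7.8 FPKM after ISP-I. The groups did not overlap, and the change was -1.48 (SE 0.131, adjusted p = 1.82e-05) in H460 and -0.86 (SE 0.156, adjusted p = 0.00188) in A549.

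The paralogs of the recombinase, which assist its filament, passed lower in H460 and not in A549, apart from RAD51B, which passed in neither. RAD51D (chr17:35092208-35121522) was at 4.28, 4.08 and 3.71 FPKM in H460 controls and at 0.807, 0.69 and 0.709 FPKM after ISP-I, a 5.47-fold lower mean. In A549 it was at 3.13, 3.15 and 3.36 FPKM in controls and at 3.16, 2.76 and 2.92 FPKM after ISP-I. The H460 groups were clearly apart and the A549 groups overlapped, with changes of -1.53 (SE 0.0985, adjusted p = 3.33e-06) and -0.09 (SE 0.0779, adjusted p = 0.327). Other genes on the same strand share 8.89% of the exonic bases of RAD51D. XRCC2 (chr7:152644776-152676141), the partner of RAD51D, was at 14.6, 12.5 and 15.1 FPKM in H460 controls and at 5.29, 6.98 and 4.17 FPKM after ISP-I, and at 12.1, 11.1 and 8.07 FPKM and 9.26, 8.11 and 8.7 FPKM in A549. Its change was -1.23 (SE 0.169, adjusted p = 0.000233) in H460 and -0.22 (SE 0.134, adjusted p = 0.192) in A549. The A549 value became -0.38 (adjusted p = 0.000748) without control library 3 and -0.31 (adjusted p = 0.013) with the GC trend removed, so that it passed. RAD51C was at 6.15 ± 0.668 FPKM in H460 controls and 2.95 ± 0.711 FPKM after ISP-I, a change of -0.87 (adjusted p = 0.000932), against 0.06 (adjusted p = 0.637) in A549. XRCC3, the partner of RAD51C, went from 5.51 ± 0.239 to 3.1 ± 0.476 FPKM in H460, a change of -0.67 (adjusted p = 0.00126), against -0.08 (adjusted p = 0.465) in A549. The H460 response minus the A549 response was -0.93 (SE 0.191, adjusted p = 0.0014) for RAD51C and -0.59 (SE 0.144, adjusted p = 0.00445) for XRCC3. Exons of KLC1 on the other strand cover 76.7% of the exonic bases of XRCC3, and the strand setting of the counting is not stated. RAD51B was at 0.866 ± 0.229 FPKM in H460 controls and 0.668 ± 0.0471 FPKM after ISP-I, and changed by -0.16 (adjusted p = 0.193) in H460 and 0.10 (adjusted p = 0.275) in A549.

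The Fanconi core complex and UBE2T held the largest fall, that of UBE2T, with 5 of 9 genes called lower in H460 (55.6%, against 15.2% of all genes) and UBE2T alone in A549 (11.1%, against 3.51%). UBE2T (chr1:202331657-202341980), the E2 enzyme that carries ubiquitin to FANCD2 and FANCI, was at 54.5, 50.1 and 42.8 FPKM in H460 controls and at 6.03, 5.34 and 5.91 FPKM after ISP-I. In A549 it was at 38, 32.8 and 39.3 FPKM in controls and at 14.5, 13.1 and 14.1 FPKM after ISP-I. The treated libraries lay far below the controls in both lines. The mean was 8.53-fold lower in H460, at -2.88 (SE 0.125, adjusted p = 6.17e-07), and 2.64-fold lower in A549, at -1.33 (SE 0.0848, adjusted p = 7.73e-06).

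FANCL (chr2:58159243-58241372), the E3 ligase that works with UBE2T, was at 12.2, 9.44 and 9.79 FPKM in H460 controls and at 2.6, 3.34 and 1.87 FPKM after ISP-I. In A549 the levels were 11.8, 10.9 and 7.27 FPKM in controls and 6.03, 7.14 and 6.1 FPKM after ISP-I. The lowest A549 control, library 3, was just above the highest treated library. FANCL changed by -1.69 (SE 0.172, adjusted p = 4.1e-05) in H460 and -0.54 (SE 0.158, adjusted p = 0.0185) in A549, and the A549 change no longer passed when control library 1 or 2 or ISP-I library 1 or 3 was left out, with adjusted p from 0.0542 to 0.0691.

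FANCA (chr16:89737549-89816657), a structural subunit of the core complex, fell in both lines with little spread. It was at 11.1, 12.8 and 11.4 FPKM in H460 controls and 3.15, 2.98 and 2.48 FPKM after ISP-I, a change of -1.72 (SE 0.12, adjusted p = 5.1e-06). In A549 it went from 9.08, 9.3 and 9.69 FPKM to 4.95, 4.83 and 4.75 FPKM, a change of -0.83 (SE 0.0683, adjusted p = 2.85e-05). Exons of ZNF276 on the other strand cover 19.6% of its exonic bases. FANCE (chr6:35452338-35467102), the subunit that binds FANCD2, fell in H460 from 9.01, 8.75 and 8.82 FPKM to 3.7, 2.66 and 3.23 FPKM, with no overlap. In A549 FANCE was at 3.81, 4.9 and 4.67 FPKM in controls and at 4.5, 5.22 and 4.89 FPKM after ISP-I, which overlapped. The changes of FANCE were -1.24 (SE 0.123, adjusted p = 3.55e-05) in H460 and 0.11 (SE 0.1, adjusted p = 0.385) in A549.

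FANCC, which joins FANCE to the complex, fell in H460 from 4.32 ± 0.259 to 1.27 ± 0.0482 FPKM and in A549 from 3.59 ± 0.315 to 2.02 ± 0.159 FPKM, and passed in both at -1.23 (adjusted p = 1.11e-05) and -0.60 (adjusted p = 0.000508). FANCF (chr11:22622533-22625823), the adaptor of the same complex, was at 4.37, 4.12 and 2.63 FPKM in H460 controls and 3.84, 3.27 and 2.89 FPKM after ISP-I, which overlapped. In A549 it rose from 3.4, 3.74 and 4.9 FPKM to 8.91, 7.94 and 7.56 FPKM, above every control. The A549 change was 0.88 (SE 0.12, adjusted p = 0.000412), a 2.03-fold higher mean. In H460 FANCF had -0.11 (SE 0.17, adjusted p = 0.6), a value that became 0.12 under median-of-ratios scaling, 0.13 under quantile normalization and 0.16 with voom on reads. Exons of GAS2 on the other strand cover 9.57% of the exonic bases of FANCF.

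FANCG had few reads, with 12 to 31 reads in each control library of H460 and 2 to 5 reads in each treated one. Its change passed in H460 at -0.37 (adjusted p = 0.00716) and not in A549 at -0.17 (adjusted p = 0.0803). FANCB, a partner of FANCL, and FANCM, the motor that anchors the complex to DNA, overlapped between treatments in both lines. In H460 FANCB was at 2.18 ± 0.578 FPKM in controls and 1.61 ± 0.63 FPKM after ISP-I, and FANCM at 1.09 ± 0.354 and 1.07 ± 0.535 FPKM. FANCB changed by -0.30 (adjusted p = 0.202) in H460 and -0.02 (adjusted p = 0.88) in A549, and FANCM by -0.03 (adjusted p = 0.894) and -0.18 (adjusted p = 0.509).

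The pair that receives ubiquitin was called lower in both lines. FANCD2 (chr3:10026414-10101932) was at 5.21, 4.67 and 4.46 FPKM in H460 controls and at 1.44, 1.26 and 0.885 FPKM after ISP-I, and its A549 levels went from 7.16, 6.46 and 5.96 FPKM to 2.4, 2.31 and 2.01 FPKM. The change was -1.40 (SE 0.128, adjusted p = 2.11e-05) in H460 and -1.21 (SE 0.0917, adjusted p = 1.77e-05) in A549. FANCI (chr15:89243945-89317261), its partner, was at 9.85, 8.06 and 8.17 FPKM in H460 controls and at 3.2, 3.43 and 2.34 FPKM after ISP-I, and went from 15.8, 15.7 and 11.6 FPKM to 6.57, 6.42 and 6.26 FPKM in A549. It changed by -1.29 (SE 0.144, adjusted p = 7.22e-05) in H460 and -1.04 (SE 0.114, adjusted p = 0.000126) in A549. Without A549 control library 1 or control library 2 the A549 change of FANCI was -0.97, under 2-fold. Neither gene overlapped between treatments in either line. The difference of the responses, H460 minus A549, was -0.19 (SE 0.153, adjusted p = 0.314) for FANCD2 and -0.25 (SE 0.189, adjusted p = 0.285) for FANCI.

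SLX4, the scaffold of the nucleases that unhook a crosslink, fell in H460 from 5.39 ± 0.632 to 1.31 ± 0.0929 FPKM and in A549 from 5.06 ± 0.111 to 3.17 ± 0.373 FPKM. It was called in H460 at -1.46 (SE 0.115, adjusted p = 9.62e-06) and passed in A549 at -0.54 (SE 0.0882, adjusted p = 0.00104). FAN1 (chr15:30890559-30943108), a nuclease recruited by ubiquitinated FANCD2, was at 1.47, 1.66 and 1.5 FPKM in H460 controls and 1.81, 2.51 and 1.6 FPKM after ISP-I, which overlapped. It rose in A549 from 3.03, 3.16 and 2.72 FPKM to 4.18, 4.02 and 4.11 FPKM without overlap. Its changes were 0.21 (SE 0.127, adjusted p = 0.165) in H460 and 0.36 (SE 0.0781, adjusted p = 0.0045) in A549, and under median-of-ratios scaling the H460 change was 0.40 (adjusted p = 0.0249), which passed. POLQ, the polymerase of an alternative end-joining route that competes with recombination, fell in H460 from 1.9 ± 0.0955 to 0.87 ± 0.326 FPKM and in A549 from 4.23 ± 1.32 to 2.41 ± 0.161 FPKM, at -0.64 (adjusted p = 0.00224) and -0.59 (adjusted p = 0.0228).

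**Figure D3:**
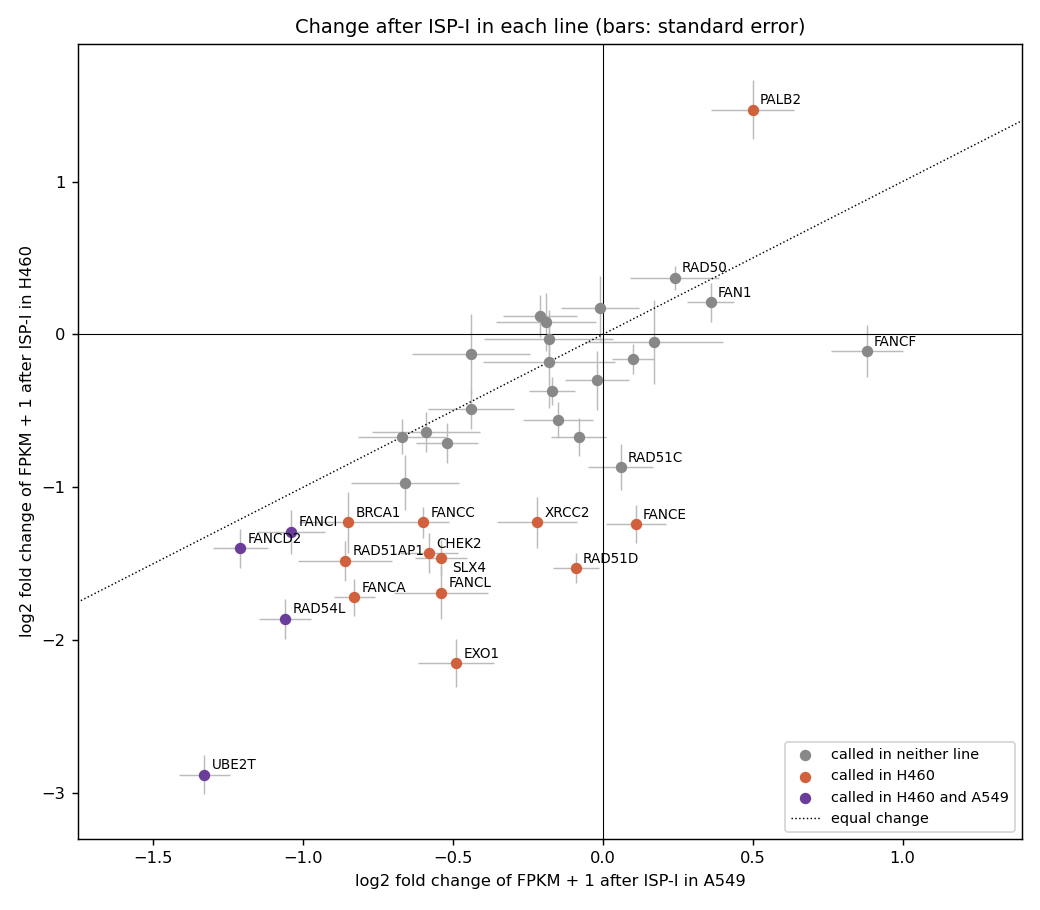
Log2 fold change of FPKM + 1 after ISP-I in A549 (horizontal axis) and H460 (vertical axis) of the 37 repair genes, with bars for the standard error and a dotted line of equal change. UBE2T lies lowest at -2.88 in H460 and -1.33 in A549, and PALB2 highest at 1.47 and 0.50. Below the dotted line lie 30 of the 37 genes, and the share of all genes below it was not counted.

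The difference between the lines was tested as the interaction of line and treatment over the 12 libraries. In the paper's viability assay, the inhibitory dose (IC50) at 48 h was under 10 µM in H460 and above it in A549. The part of this in the difference was not tested. The interaction was called negative, with the H460 response more than 2-fold below that of A549, for 6 of the 37 genes, against 10.1% of all genes tested. None was called positive, against 5.93%, but 2 were with voom on recovered reads and 1 each with a pseudocount of 0.1, quantile normalization and median-of-ratios scaling. The 6 were EXO1 at -1.66 (SE 0.211, adjusted p = 4.05e-05), UBE2T at -1.55 (SE 0.146, adjusted p = 3.84e-06), RAD51D at -1.44 (SE 0.109, adjusted p = 6.91e-07), FANCE at -1.35 (SE 0.152, adjusted p = 1.56e-05), FANCL at -1.14 (SE 0.253, adjusted p = 0.00234) and XRCC2 at -1.01 (SE 0.23, adjusted p = 0.0028). PALB2 was the member with the most positive difference, 0.97 (SE 0.258, adjusted p = 0.00729), just under the 2-fold limit. FANCL was under 2-fold with quantile normalization (-0.80), with median-of-ratios scaling (-0.91), without A549 control library 3 (-0.95) and without H460 ISP-I library 3 (-0.99). XRCC2 was under 2-fold with quantile normalization (-0.76), median-of-ratios scaling (-0.74) and voom (-0.82), and ran from -1.17 to -0.86 when single libraries were left out, lowest in size without A549 control library 3 or H460 ISP-I library 3. Under each of the scalings by quantiles and by median of ratios, 4 members were called negative, and 12 were with a pseudocount of 0.1. A member was called positive, 1 in each case, without A549 control library 3, A549 ISP-I library 3, H460 control library 1 or H460 ISP-I library 3. FANCF had -0.98 (SE 0.221, adjusted p = 0.00263), short of 2-fold on the other side. The median difference of the 37 genes was -0.27, against -0.16 for all genes tested. The fitted change was more negative in H460 for 30 of the 37 genes. The matching share of all genes was not counted, and their median was itself below 0.

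Without treatment the lines differed most in EXO1. The mean FPKM of EXO1 in H460 controls was 7.87 times that in A549 controls, a log2 difference of 2.90 (SE 0.136, adjusted p = 3.74e-07), and it was the single member called higher in H460, against 5.64% of all genes. BLM was the single member called lower in H460, at -1.06 (SE 0.201, adjusted p = 0.00189), against 8.78% of all genes. That count was 0 without A549 control library 1, A549 control library 2 or H460 control library 2, 2 without H460 control library 3 and 4 without A549 control library 3. FANCE was 1.99 times as high in H460 controls, and RAD50 3.85 times as high in A549 controls.

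Other genes of the pathways were counted from lists written from general knowledge. Of 55 partners of recombination and Fanconi repair that were tested, 9 were called lower and 3 higher in H460, and 2 lower and none higher in A549. The shares called lower, 16.4% and 3.64%, were near those of all genes tested, 15.2% and 3.51%. RPA1, the large subunit of the single-strand binding protein, fell from 44.1 ± 4.65 to 6.27 ± 0.935 FPKM in H460 (log2 fold change -2.64, adjusted p = 1.23e-06) and from 41.7 ± 0.548 to 20.0 ± 0.655 FPKM in A549 (-1.02, adjusted p = 5.23e-06). CLSPN, the mediator of CHEK1 activation, and EME1, a nuclease subunit, had log2 fold changes of -1.80 and -1.46 in H460. RMI2, a subunit of the BLM complex, and RAD9A, of the checkpoint clamp, had -1.01 and -0.90 in A549. The genes called higher in H460 were HELQ, a helicase of crosslink repair, at 1.65, ERCC4 (XPF), a nuclease of the SLX4 scaffold, at 1.52, and HUS1, of the checkpoint clamp, at 1.47.

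Other repair routes and cell cycle genes gave these counts. Non-homologous end joining had 0 of 18 genes called lower and 2 higher in H460. Base excision repair had 10 of 17 called lower, mismatch repair 2 of 7 and nucleotide excision repair 1 of 16. In A549 the counts called lower were 0, 1, 0 and 0 in the same order. Genes of S phase and replication were called lower for 24 of 37 in H460 and 11 of 37 in A549, with medians of -1.23 and -0.83. Genes of G2 and mitosis were called lower for 17 of 25 in H460 and 11 of 26 in A549, with medians of -1.51 and -0.91. These cell cycle genes moved with the repair genes, and their part in the result was not tested.

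**Figure D4:**
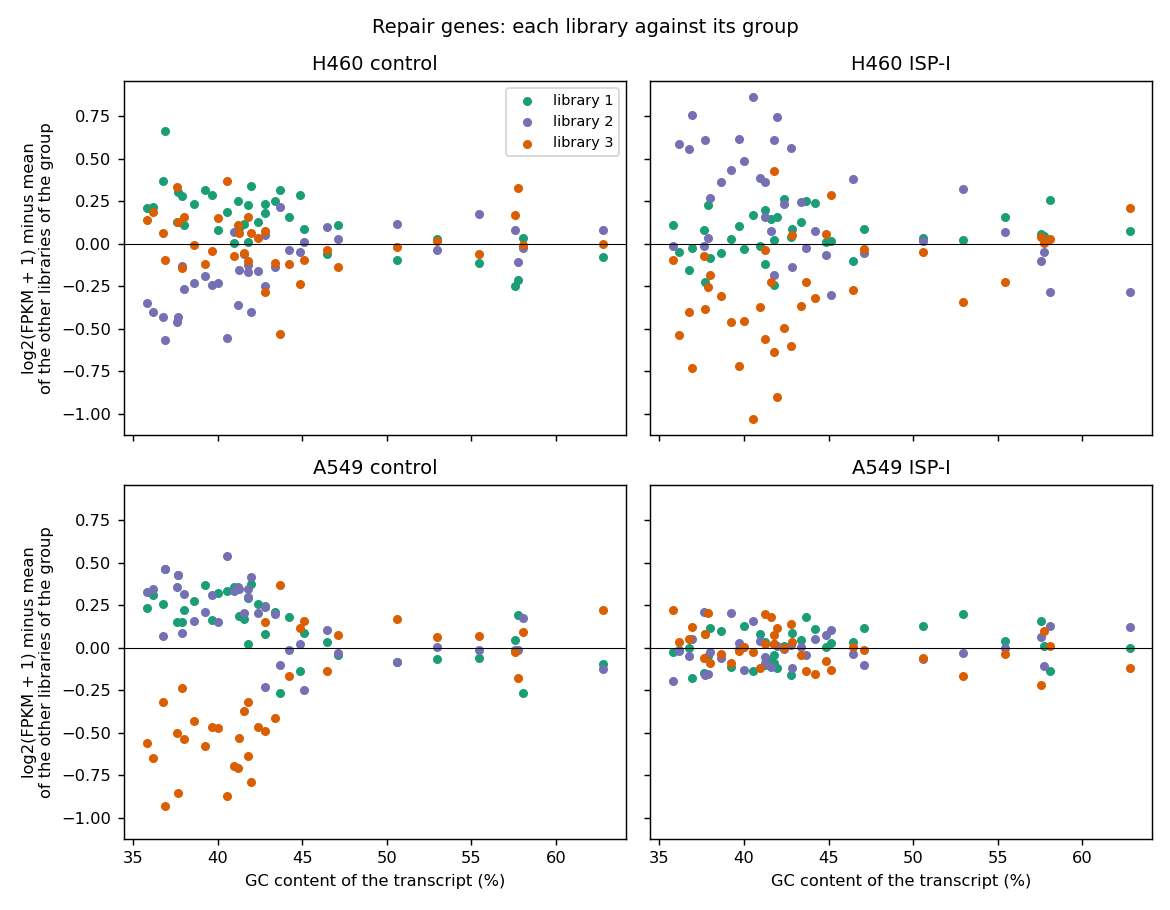
Deviation of each library from the other libraries of its group, in log2(FPKM + 1), for the 37 repair genes by the GC content of their transcript in percent, with a panel for each group and a colour for each library. In A549 control library 3 the median deviation of the repair genes is -0.40 and that of the 11 genes under 40% GC is -0.53, while the A549 ISP-I libraries lie near 0.

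The GC content of the repair genes ran from 35.8% to 62.8%. In H460 ISP-I libraries the 11 repair genes under 40% GC had a median deviation of 0.43 in library 2 and -0.38 in library 3. For all 37 repair genes these were 0.23 and -0.27, so the shift was larger at low GC but not confined to it. With each library's GC trend removed, 18 repair genes were called lower and 1 higher in H460, and 5 lower and none higher in A549.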

How the data were processed

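Total RNA of non-treated and ISP-I treated cells was sequenced as 150 bp paired-end reads. After FastQC filtering and HISAT2 mapping (hg38), the authors took gene counts from HTSeq 0.9.1 and deposited FPKM. The deposited gene length column holds bases. The annotation version and the strand setting are not given in the sources used here. Whole reads could be recovered from the product of FPKM and length for 100% of values, 14225849 to 17874422 per library. The tolerance was 0.01 of a read and widened with the count for genes of many reads, where the check is weaker. FPKM corrects for no other difference between libraries than total reads and length.

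The members and gene lists were chosen with earlier results of these data known. Columns of the table name the line and treatment, so libraries were numbered by order within a group, no per-sample column was left out (0), and 4 lines without a gene ID, pieces of an overlong cell, were dropped. Genes averaging 0.1 FPKM or more were fitted as log2(FPKM + 1) per line with limma 3.58.1 (R 4.3.3, mean-variance trend), and over all 12 libraries for the interaction, with Benjamini-Hochberg adjustment. Controls were compared likewise. On simulated data with independent noise and large changes in well-expressed genes, the script recovered most of the changed genes. That check did not cover genes of low FPKM or the GC trend of the libraries. Values in every library are given for the 8 largest called changes per line, members that passed higher, and members called between lines, and for partners the 3 with the smallest p per line and those called higher. Promoters were from RefSeq (GRCh38.p14): 34 members had an entry and 32 had one within 100 bases of the MANE start. GC content and exon overlaps came from GENCODE transcripts. Tables were handled in Python 3.11.15 with pandas 2.3.3 and numpy 2.4.6.

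Alternatives were quantile normalization, median-of-ratios scaling, voom on recovered reads (10 or more in 3 libraries), 0.1 as the pseudocount, a 1 FPKM minimum or no filter, all libraries in 1 fit, and each library left out in turn. Removing each library's GC trend (lowess, span 0.3) was added after the data were seen.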

Additional observations from a re-analysis of the deposited data

Results flagged for a closer look

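The interaction of line and treatment was called negative for 6 of the 37 repair genes (16.2%), against 10.1% of all genes tested. For these, the log2 response to ISP-I in H460 was below that in A549 by more than 1, with a limma adjusted p under 0.05. The differences, H460 minus A549, were -1.66 for EXO1, -1.55 for UBE2T, -1.44 for RAD51D, -1.35 for FANCE, -1.14 for FANCL and -1.01 for XRCC2. Leaving out single libraries gave 5 to 7 such genes, quantile normalization and median-of-ratios scaling 4 each, and a pseudocount of 0.1 gave 12. FANCL was at -0.80 and -0.91 and XRCC2 at -0.76 and -0.74 under quantile normalization and median-of-ratios scaling, and XRCC2 at -0.82 with voom, all short of the limit of 1. UBE2T, EXO1 and FANCL passed lower in both lines, so for them the lines differ in the size of the fall, while RAD51D, FANCE and XRCC2 passed in H460 and not in A549. The median difference over all genes tested was -0.16. Groups of 3 libraries were too small for a check of single outlying libraries.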

How the results depend on the processing

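Single-member repeats covered the 15 members with values given in every library, and the line differences of those called between lines. These were picked for large changes, rises or called differences, so the counts do not describe all 37. Of the repeated values, 517 kept direction and side of the 0.05 limit of adjusted p, 7 lost it, 5 gained it and 4 reversed. The 2-fold limit was left out, so FANCI in A549 at -0.97 without control library 1 counted as kept. So did the line difference of XRCC2 at -0.74 under median-of-ratios scaling. The count called lower in H460 (15) was 14 to 21, and in A549 (4) 4 or 5, with all libraries kept, and 15 to 16 and 3 to 6 without single libraries. With a pseudocount of 0.1, 2 members were called higher in H460 and 1 in A549, 12 members differed negatively and 1 positively between lines, 5 were lower in H460 controls, and the medians were -1.32 in H460 and -0.47 in A549. With voom on reads, 2 were called higher in H460 and 1 in A549, 2 differed positively, 2 were higher and 4 lower in H460 controls, and the medians were -1.10 and -0.51. A minimum of 1 FPKM gave 1 member higher at any fold in H460 and medians of -0.92 and -0.33. Quantile normalization gave 4 higher at any fold in H460, 1 positive difference, 0 lower in H460 controls and medians of -0.46 and -0.27. Median-of-ratios scaling gave 1 positive difference and an H460 median of -0.52. Removing the GC trend gave 1 higher at any fold in H460, 0 lower in H460 controls and medians of -0.99 and -0.34. Without single libraries, positive differences numbered 0 to 1, members lower in H460 controls 0 to 4, and the A549 median ran from -0.47 to -0.12. FANCF in H460, -0.11, reversed to 0.13 with quantile normalization, 0.12 with median-of-ratios scaling and 0.16 with voom, and ran from -0.28 to 0.00 without single libraries. FAN1 in H460 passed under quantile normalization (0.45), median-of-ratios scaling (0.40) and voom (0.61). Beyond the pseudocount and filter, whose construction acts on genes of low FPKM, the cause was not tested. No paired analysis was possible because the columns of the table carry no replicate number of the sample titles.

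Few reads limit FANCG, with 2 to 5 reads in H460 ISP-I libraries, RAD54B and RAD50. Exons shared on the same strand also limit RAD54B (66.0% of exonic bases) and RAD50 (76.9%). With 3 libraries a group, small changes of the low-GC members could not be told from the spread between libraries.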
